A study of Mus musculus with 884 samples.

Results

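Replication of 10 imprinted genes was followed in single mouse cells: Ube3a, Snrpn, Ndn, H19, Igf2, Kcnq1 and Peg3 on chromosome 7, Dlk1 and Meg3 on chromosome 12, and Igf2r on chromosome 17. The genes were chosen for being imprinted and not by a measured value. Each was placed on the 80 kb bins of the mm9 build by a position given with the list, and 400 kb on either side was taken with it. The 10 windows overlap in part and form 6 stretches with 86 bins, of 30890 autosomal bins in all. Each gene is represented by the bin that holds its middle.

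An imprinted gene is expressed mainly from the copy inherited from one parent, and the choice is set by DNA methylation laid down in the germ line. The domains are a classical example of asynchronous replication, in which the parental copies of a gene are copied at different times in S phase. In the brain Ube3a is silenced on the paternal copy in neurons, while Snrpn and Ndn are expressed from the paternal copy in many tissues, and loss of these expressed copies in humans underlies Angelman and Prader-Willi syndromes. The calls used here do not separate the parental copies on autosomes, so asynchrony between them was not measured.

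The data are single-cell Repli-seq, in which the genome of a sorted S-phase cell is amplified and sequenced and every bin receives a call of replicated or not replicated. The first group was the female embryonic stem cell line CBMS1 (CBA/MsM) kept in 2i/LIF (d0), followed by the same line after 2 days as epiblast-like cells (d2) and then in floating aggregates without added factors at d3, d4, d5, d6 and d7, a protocol that leads to neurectoderm. The last group was female epiblast stem cells (EpiSC) of strain C57BL6 grown with activin and FGF, so strain and cell state cannot be told apart for it. The labels name 1 line or stock per group and no separate cultures, so each group is 1 sample. No test was possible, and no RNA was measured against which to check the labelled cell states.

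Progress of a cell through S phase is measured by its replication score, the percentage of called bins that carry a call of replicated. Shares are given over the 293 cells that the labels place at a score of 40 to 70%, called window cells. They number 59 for d0, 35 for d2, 13 for d3, 18 for d4, 20 for d5, 21 for d6, 66 and 35 (from a previous series) for d7, and 26 for EpiSCs. In such cells an early gene is mostly replicated and a late gene mostly not. Window cells had 26813 to 29849 bins called. Brackets give exact (Clopper-Pearson) 95% intervals, which cover counting error only, since cells of a group share its culture. The calls of 7 window cells (3 at d0, 1 at d4 and 3 at d7) did not follow the mean profile of their group. In the 72 G1 cells, which have not begun replication, Dlk1 and Meg3 were called replicated in 4 cells each, 5.56% [1.53 to 13.6], and Igf2r in 1. The other 7 genes were replicated in 0 of 71 or 72 G1 cells, for which the exact interval reaches up to 5.06%.

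The genes fell into an early and a late class in d0 cells. Igf2r, Kcnq1, Dlk1, Meg3, Igf2, Peg3 and H19 were replicated in 79.3 to 96.6% of d0 window cells, and Ube3a, Snrpn and Ndn in 10.2 to 24.6%. Igf2r encodes the receptor that clears the growth factor Igf2. At d0 its share was above that of 87.6% of all bins. Ndn, which encodes the neuronal growth suppressor necdin, was the lowest of the 10, above 19.5% of all bins. Within the early class the d0 intervals of H19 [67 to 88.8] and Peg3 [71 to 91.6] overlapped those of Igf2, Dlk1 and Meg3, so the shares alone do not order them. Nor do they order the late class, where Ndn [3.82 to 20.8] overlapped Ube3a [14.1 to 37.8]. The order of some pairs within single cells is given at the end.

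**Figure D1:**
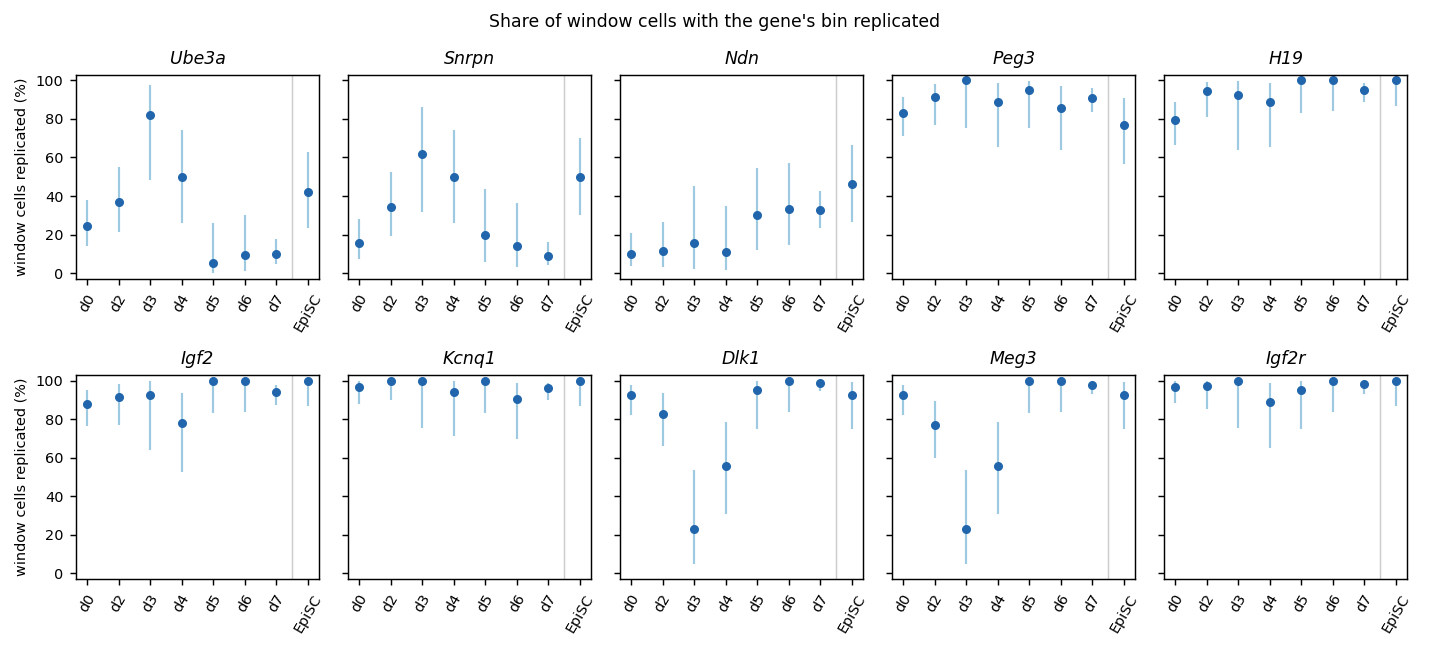
Share of window cells (vertical axis, %) with the gene's bin replicated at each day and in EpiSCs (horizontal axis), 1 panel per gene. Points are shares and bars are exact 95% intervals over cells. Ube3a and Snrpn peaked at d3 while Dlk1 and Meg3 were lowest there at 23.1%, and Ndn stood at 30 to 33.3% from d5 to d7 and at 46.2% in EpiSCs.

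Ube3a, which encodes a ubiquitin ligase, was replicated in 24.6% of window cells at d0 (14 of 57), 37.1% at d2 (13 of 35), 81.8% at d3 (9 of 11), 50% at d4 (9 of 18), 5.26% at d5 (1 of 19), 9.52% at d6 (2 of 21), 9.90% at d7 [4.85 to 17.5] and 42.3% in EpiSCs (11 of 26). It was thus a mostly replicated gene in d3 cells and a mostly unreplicated one at d0 and from d5 on. Snrpn, which encodes a small nuclear ribonucleoprotein and lies in the next window, had 15.8% at d0 (9 of 57), 34.3% at d2 (12 of 35), 61.5% at d3 (8 of 13), 50% at d4 (9 of 18), 20% at d5 (4 of 20), 14.3% at d6 (3 of 21), 9% at d7 (9 of 100) and 50% in EpiSCs (13 of 26). Across the groups their bins never differed by more than 20.3 points, and each was the other's closest match among the 10 genes. The closest match of a gene is the one whose share differed least from it in the group where the 2 were farthest apart.

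Ndn lies farther along chromosome 7 and did not follow them. Its share was 10.2% at d0 (6 of 59), 11.4% at d2 (4 of 35), 15.4% at d3 (2 of 13), 11.1% at d4 (2 of 18), 30% at d5 (6 of 20), 33.3% at d6 (7 of 21), 32.7% at d7 [23.7 to 42.7] and 46.2% in EpiSCs (12 of 26). The groups up to d4 lay at or below 15.4% and the later ones at or above 30%, but the d7 value pools 2 sets of cells that differ, 57.1% in cells of a previous series and 19.7% in those of the present one. At d3 its share was 46.2 points below that of Snrpn.

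Dlk1 encodes a membrane protein that regulates progenitor cells, and Meg3 is a noncoding RNA of the same domain expressed from the other parental copy. Their bins are neighbours. Dlk1 was replicated in 92.7% of window cells at d0 (51 of 55), 82.9% at d2 (29 of 35), 23.1% at d3 (3 of 13), 55.6% at d4 (10 of 18), 95% at d5 (19 of 20), 100% at d6 (21 of 21), 99% at d7 (98 of 99) and 92.3% in EpiSCs (24 of 26). Meg3 stayed within 5.71 points of Dlk1 in every group. Both genes were therefore low at d3 and d4, the days on which Ube3a and Snrpn were highest.

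Promoter sequences are shown for the genes that stood farthest from their d0 share at d3, Dlk1 and Meg3 on the low side and Ube3a on the high side, so that their CpG content can be seen. CG, the dinucleotide at which DNA can be methylated, is in capitals. Methylation was not measured, so the capitals do not mark imprinted sites. The sequences are from RefSeq (GRCm38.p6, plus strand, 250 bases before to 50 after the start) and not from the mm9 build of the calls: chr12:109452573-109452872 for Dlk1, chr12:109540746-109541045 for Meg3 and chr7:59228500-59228799 for Ube3a.
Dlk1: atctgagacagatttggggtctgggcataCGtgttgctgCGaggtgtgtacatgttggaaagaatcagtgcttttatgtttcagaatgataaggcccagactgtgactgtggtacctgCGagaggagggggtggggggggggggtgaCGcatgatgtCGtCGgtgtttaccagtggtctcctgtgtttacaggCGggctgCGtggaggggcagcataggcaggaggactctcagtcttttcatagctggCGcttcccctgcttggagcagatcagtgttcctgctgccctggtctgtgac
Meg3: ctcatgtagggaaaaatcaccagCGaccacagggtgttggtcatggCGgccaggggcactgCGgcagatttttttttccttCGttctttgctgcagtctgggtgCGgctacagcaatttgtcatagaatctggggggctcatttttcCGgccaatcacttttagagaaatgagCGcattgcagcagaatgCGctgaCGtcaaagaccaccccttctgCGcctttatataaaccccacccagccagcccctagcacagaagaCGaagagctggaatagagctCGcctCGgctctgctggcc
Ube3a: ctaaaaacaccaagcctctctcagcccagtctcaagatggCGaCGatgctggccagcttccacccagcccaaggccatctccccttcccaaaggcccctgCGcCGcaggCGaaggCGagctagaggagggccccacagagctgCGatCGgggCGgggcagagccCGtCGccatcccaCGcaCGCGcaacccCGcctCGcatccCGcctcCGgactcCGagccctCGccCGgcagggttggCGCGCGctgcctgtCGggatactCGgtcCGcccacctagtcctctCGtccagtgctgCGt

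Dlk1 holds 9 CG dinucleotides in these 300 bases, Meg3 holds 13 and Ube3a holds 29, against a median of 7 over 32851 promoters. At least as many were held by 45.8% of promoters for Dlk1, 37.9% for Meg3 and 13% for Ube3a. Igf2r holds 34 (7.73% of promoters hold as many), Peg3 holds 13 and Ndn 11. The 4 listed starts of Igf2 hold 2, 14, 24 and 7. The 4 listed starts of Snrpn hold 2 to 7 each, and another listed start of Meg3 holds 1. Entries matched 8 of the 10 genes, all but H19 and Kcnq1. A promoter is far shorter than a bin, and these counts describe the sequence only.

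The remaining 5 genes stayed early in every group. H19, a noncoding RNA expressed from the maternal copy, ranged over the groups between 79.3% at d0 and 100% at d5, d6 and in EpiSCs. Igf2, a growth factor expressed from the paternal copy, ranged between 77.8% at d4 and 100% in the same 3 groups. Kcnq1, a potassium channel gene, lay between 90.5 and 100%, and Igf2r between 88.9 and 100%. Peg3, a zinc finger gene expressed from the paternal copy, lay between 76.9% in EpiSCs and 100% at d3.

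**Figure D2:**
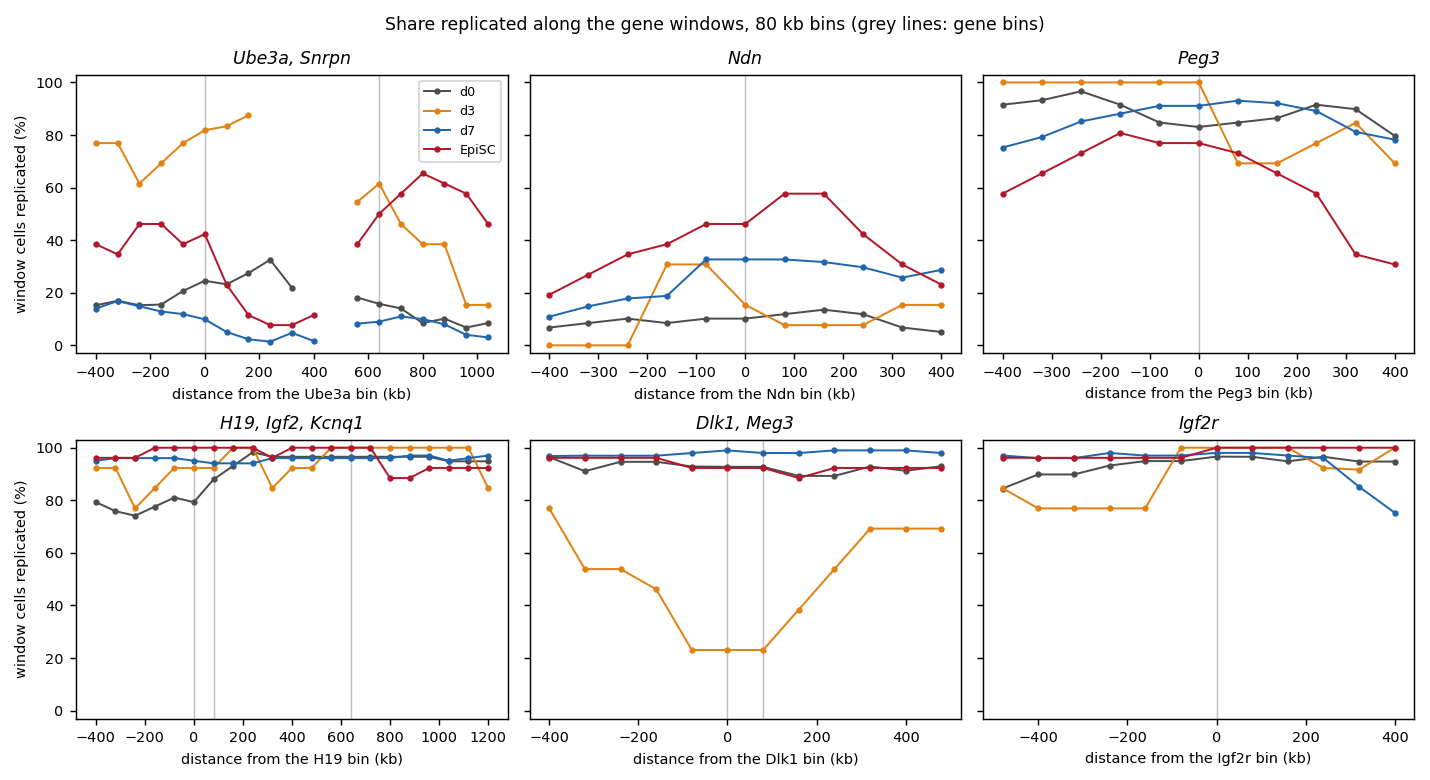
Share of window cells replicated (vertical axis, %) in each 80 kb bin of the 6 stretches, by distance from the first named gene's bin in kb (horizontal axis). Lines are d0, d3, d7 and EpiSC, grey verticals mark gene bins, and gaps are bins called in under 50% of cells. At d3 the Dlk1-Meg3 stretch dipped to 23.1% around both genes, and in EpiSCs the Peg3 stretch declined to 30.8% at its right edge.

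Along the windows the late stretch of Ube3a and Snrpn held a gap. Between the genes 1 bin was called in under 50% of cells in every group and 3 further bins in some, so 8 of 11 bins of the Ube3a window and 7 of 11 of the Snrpn window had a share in all groups. At d7 the share along the Ube3a window was 1.41 to 16.8%. In EpiSCs it was 7.69 to 46.2%, with 38.5% on the left edge and 11.5% at 400 kb on the right. The Snrpn side was the reverse in EpiSCs, with 50% at the gene, 65.4% at 160 kb beyond it and 46.2% at 400 kb. At d7 the same 3 bins had 9%, 10% and 3%.

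The Ndn window was low and flat at d0, 5.08 to 13.6%. At d7 it lay between 10.9 and 32.7%, with 32.7% in the gene's bin and in both bins beside it. In EpiSCs it was domed, with 57.7% at 80 and 160 kb right of the gene against 19.2% on the left edge and 23.1% on the right edge.

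The stretch from H19 to Kcnq1 showed a step at d0 that was not seen at d7 or in EpiSCs. H19 and the 5 bins to its left had 74.1 to 81% at d0, Igf2 had 87.9%, and the bins from 160 kb beyond Igf2 through Kcnq1 had 96.6 to 98.3%. Ins2, Th, Ascl2, Tspan32, Cd81, Tssc4 and Trpm5 lie between Igf2 and Kcnq1 in the gene table used, and Kcnq1ot1 lies inside Kcnq1. No bin was assigned to these neighbours. At d7 all 11 bins of the H19 window lay between 94.1 and 96.0%, and in EpiSCs between 96.2 and 100%.

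Peg3 sat in a shallow dip at d0, with 83.1% in its bin and up to 96.6% at 240 kb to its left. At d7 the shape was the reverse, with 91.1% in the gene's bin, 75.2% on the left edge and 78.2% on the right edge. In EpiSCs the gene had 76.9%, and the 2 outermost bins on the right had 34.6% and 30.8%, against 81.2% and 78.2% at d7 and 89.8% and 79.7% at d0. Those EpiSC values lie past the size rule described next, although the gene's own bin does not. The right flank was low at d2 as well, 48.6% at 400 kb with 91.4% in the gene's bin.

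Igf2r lay in a stretch that was mostly replicated in every group. The gene spans 2 bins, which differed most at d5, with 90% and 95%. At the right edge of its window the share was 100% in EpiSCs and 75.2% at d7, against 94.7% at d0, and at the left edge it was 96.2% in EpiSCs and 97% at d7, against 84.5% at d0. None of these differences reached the size rule.

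A difference of 30 points or more in share served as a size rule for comparing groups. For d7 against d0, 0 of the 10 genes passed, while 15.5% of 29688 bins did. Ndn came nearest, with 32.7% at d7 against 10.2% at d0, a difference of 22.5 points. H19 had 95% at d7 against 79.3% at d0, and Ube3a 9.90% at d7 against 24.6% at d0. The median over the 10 genes was 5.69 points, against 0.610 over all bins. Of the 84 window bins with a value in both groups, 0 were higher and 1 was lower by the rule, against 7.75% and 7.71% of all bins. By the midpoint of the switch (below), 4 genes had shifted earlier by 15 points or more at d7 (H19, Dlk1, Meg3 and Peg3), where 13.5% of all bins had. Snrpn had shifted later by as much, where 13% of bins had. At d2, d5 and d6 none of the 10 genes differed from d0 by the size rule. Of all bins, 8.52% did at d2 (1.54% higher and 6.98% lower), 10.6% at d5 (4.4% higher and 6.15% lower) and 14.9% at d6 (6.11% higher and 8.81% lower).

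The result for Ndn depended on the origin of the d7 cells. Of the window cells, 35 at d7 and 50 at d0 had been deposited in a previous series, and 66 at d7 and 9 at d0 were from the present one. At d7, Ndn was replicated in 57.1% [39.4 to 73.7] of the previous-series cells (20 of 35) and in 19.7% [10.9 to 31.3] of the present-series cells (13 of 66). The difference of 37.4 points was past the size rule of 30 points, which 0.286% of bins passed in that direction. None of the other 9 genes differed by more than 10.8 points either way. The difference at Ndn extended over 480 kb, from 69440001 to 69920000 on chromosome 7, with means of 54.3% in the previous-series and 17.4% in the present-series cells. The mean scores were 57.3% ± 7.70 and 55.9% ± 8.68 (SD over cells) in those 2 sets, a difference of less than 1 SD. At scores of 40 to 55% Ndn was replicated in 7 of 11 previous-series and 3 of 31 present-series cells, and at 55 to 70% in 13 of 24 and 10 of 35. Previous-series cells alone gave 57.1% at d7 against 6% at d0, past the rule. Present-series cells alone gave 19.7% at d7 against 33.3% at d0 (3 of 9), which includes the 3 d0 cells that did not follow the mean profile. Without such cells they gave 20.6% at d7 (13 of 63) against 16.7% at d0 (1 of 6). The previous-series d7 cells all shared 1 merged G1 control, which also served 28 present-series cells, and within it Ndn was replicated in 20 of 35 previous-series and 1 of 28 present-series cells. The present-series cells of the other 3 controls had 7 of 22, 4 of 5 and 1 of 11. Why the sets differ was not tested.

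In EpiSCs Snrpn and Ndn were replicated in more cells than at d0. They were the 2 of the 10 genes that passed the size rule, and both were higher, as were 7.36% of all bins. Snrpn had 50% [29.9 to 70.1] in EpiSCs against 15.8% [7.48 to 27.9] at d0, a difference of 34.2 points. Ndn had 46.2% [26.6 to 67] in EpiSCs against 10.2% [3.82 to 20.8] at d0, a difference of 36 points. Among bins with a d0 share within 5 points, 85.1% had a smaller difference than Snrpn and 91.4% a smaller one than Ndn. Of the 84 window bins, 13 were higher and 4 lower by the rule, against 7.36% and 6.34% of all bins. Neither gene passed when the mean of its whole window was used, or with a limit of 40 points. With present-series cells alone, which leaves 9 at d0, H19, Igf2 and Peg3 passed and these 2 genes did not. Those 9 include the 3 d0 cells that did not follow the mean profile. Without them d0 had 83.3% for H19 and Igf2 (5 of 6 each) and 66.7% for Peg3 (4 of 6). In EpiSCs these 3 genes had 100%, 100% and 76.9%. Snrpn and Ndn then had 16.7% at d0 (1 of 6 each). By midpoint Snrpn, Ndn, H19 and Igf2 were earlier in EpiSCs than at d0 by 15 points or more, where 14.3% of bins were, and 0 genes were later, where 11.2% were.

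Against d7, 2 of the 10 genes were higher in EpiSCs, where 5.74% of bins were, and 0 were lower, where 4.9% were. Ube3a had 42.3% [23.4 to 63.1] in EpiSCs against 9.90% [4.85 to 17.5] at d7. Snrpn had 50% in EpiSCs against 9% [4.20 to 16.4] at d7, a difference of 41 points that 94.2% of bins with a like d7 share stayed below. The d7 values pool cells of 4 G1 controls. Over these controls Ube3a was replicated in 6 of 22, 1 of 63, 3 of 5 and 0 of 11 window cells. Snrpn was replicated in 4 of 22, 3 of 62, 1 of 5 and 1 of 11. Ndn, at 46.2% in EpiSCs against 32.7% at d7, differed by 13.5 points and within overlapping intervals. Against the previous-series d7 cells alone it was lower, at 46.2% in EpiSCs and 57.1% in those d7 cells. Ube3a no longer passed with the window mean or with present-series cells alone, and Snrpn passed under both. By midpoint Ube3a, Snrpn and H19 were earlier in EpiSCs than at d7 by 15 points or more, where 10.6% of bins were, and Dlk1, Meg3 and Peg3 were later, where 7.56% were.

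**Figure D3:**
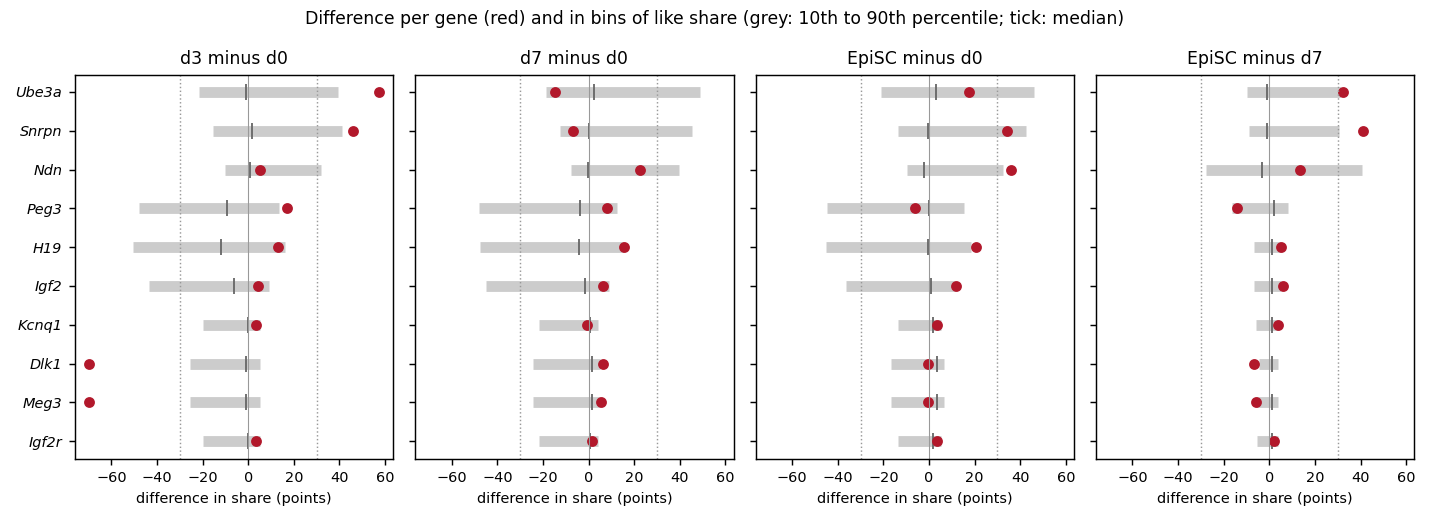
Difference in share of window cells replicated (horizontal axis, points) for each gene (red) in 4 comparisons, over bins whose share in the group subtracted lay within 5 points (grey bar, 10th to 90th percentile; tick, median). Dotted lines mark the size rule of 30 points. Dlk1 and Meg3 lie at -69.7 points in d3 minus d0, and no gene crosses a dotted line in d7 minus d0.

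The widest differences among the members were those between d3 and d0, a comparison taken up after the values were seen. By the size rule 2 genes were higher at d3, as were 5.06% of all bins, and 2 were lower, as were 8.79%. Ube3a had 81.8% [48.2 to 97.7] at d3 against 24.6% at d0. Snrpn had 61.5% [31.6 to 86.1] at d3 against 15.8% at d0. Dlk1 and Meg3 each had 23.1% [5.04 to 53.8] at d3 against 92.7% [82.4 to 98] at d0. Their difference of -69.7 points was lower than that of 99.5% of bins with a like d0 share.

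The d3 differences were not single-bin events. The bins lower at d3 by the rule ran over 640 kb around Dlk1 and Meg3, chr12:110320001-110960000, with a mean of 39.4% at d3 against 92.2% at d0. Those higher at d3 ran over 720 kb around Ube3a, chr7:66000001-66720000, with 75.9% at d3 against 19.3% at d0, and over 240 kb around Snrpn, with 54.1% at d3 against 16% at d0. The bins between the Ube3a and Snrpn runs were called in under 50% of d3 cells. The facing ends of these runs were thus set by missing calls. Within the Ube3a run, the bin 160 kb right of the gene was called in only 8 d3 window cells. At d4 Snrpn (50%) was higher than at d0 and Dlk1 and Meg3 (55.6% each) were lower, where 3.23% and 7.02% of bins were higher and lower. None of these 3 passed with the mean of the whole window, with a limit of 40 points, or with present-series cells alone. By midpoint Ube3a, Snrpn and Peg3 were earlier at d3 than at d0 by 15 points or more, where 13% of bins were, and Dlk1 and Meg3 were later, where 11.4% were. At d4 H19 was earlier, where 10.8% were, and Dlk1 and Meg3 were later, where 7.84% were.

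Several measures moved with d3. The d3 shares rest on 13 window cells. All d3 cells were corrected with 1 merged control made from 2 G1 cells, so day and control cannot be told apart. The d3 profile was also the most uneven, with a mean difference between adjacent bins of 6.24 points, against 2.83 to 4.93 in the other groups. At d2, where 2 controls were used, Snrpn was replicated in 1 of 12 cells of one and 11 of 23 of the other, and Dlk1 in 12 of 12 and 17 of 23. Their part in the d3 values was not tested. The same 4 genes passed against previous-series d0 cells alone and against d0 cells without the 3 that did not follow the profile, and with Peg3 besides when cells were matched in score. Snrpn did not pass by the mean of its whole window, 38.6% at d3 against 15.1% at d0. With present-series cells alone, which leaves 9 at d0, Dlk1, Meg3 and Peg3 passed and Ube3a and Snrpn did not. The 3 d0 cells that did not follow the profile are among those 9. Without them Ube3a had 40% (2 of 5) and Snrpn 16.7% (1 of 6) at d0, against 81.8% and 61.5% at d3. Dlk1 and Meg3 then had 83.3% at d0 (5 of 6 each), against 23.1% each at d3. Peg3 had 66.7% at d0 (4 of 6), against 100% at d3.

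The timing of each gene through S phase was read from all cells with a score of 5 to 95%, 700 in all, of which 63 were EpiSCs, 39 were at d3 and 45 at d4. A logistic curve of the call on the score gave the midpoint, the score at which the gene was replicated in 50% of cells, and the span, the points of score between 25 and 75% of cells replicated. A wide span means that cells at the same stage of S phase differ in whether the gene has been copied. Spans were set beside those of bins outside the windows whose midpoint lay within 2.5 points, called like-timed bins.

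Midpoints placed the early class at 22.5 to 47% of S phase at d0 and the late class at 67 to 77.5%. H19 had its midpoint at 7.5% in EpiSCs and 24.5% at d7, against 47% at d0. Igf2 had 15.5% in EpiSCs and 30% at d7, against 41% at d0. At scores of 20 to 40% H19 was replicated in 11 of 11 EpiSCs and 18 of 23 d7 cells, against 2 of 42 d0 cells. The window shares of these genes are close to the ceiling and hide most of this shift. Peg3 had 42% in EpiSCs and 18.5% at d7, against 46.5% at d0. Dlk1 had 31.5% in EpiSCs, 6.5% at d7 and 63% at d3, against 22.5% at d0. The values of H19 in EpiSCs and Dlk1 at d7 lie near 5%, the lowest score used, and are loosely fixed. At scores of 5 to 20% H19 was replicated in 4 of 8 EpiSCs and Dlk1 in 7 of 10 d7 cells.

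Among the late genes Ube3a had its midpoint at 59% in EpiSCs and 76.5% at d7, against 67% at d0. Snrpn had 61.5% in EpiSCs against 77.5% at d0. At d7 only 9 of 30 cells at scores of 80 to 95% had replicated Snrpn, and the fitted 99% lies beyond the cells measured. Ndn had 58.5% in EpiSCs and 71.5% at d7, against 77% at d0.

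**Figure D4:**
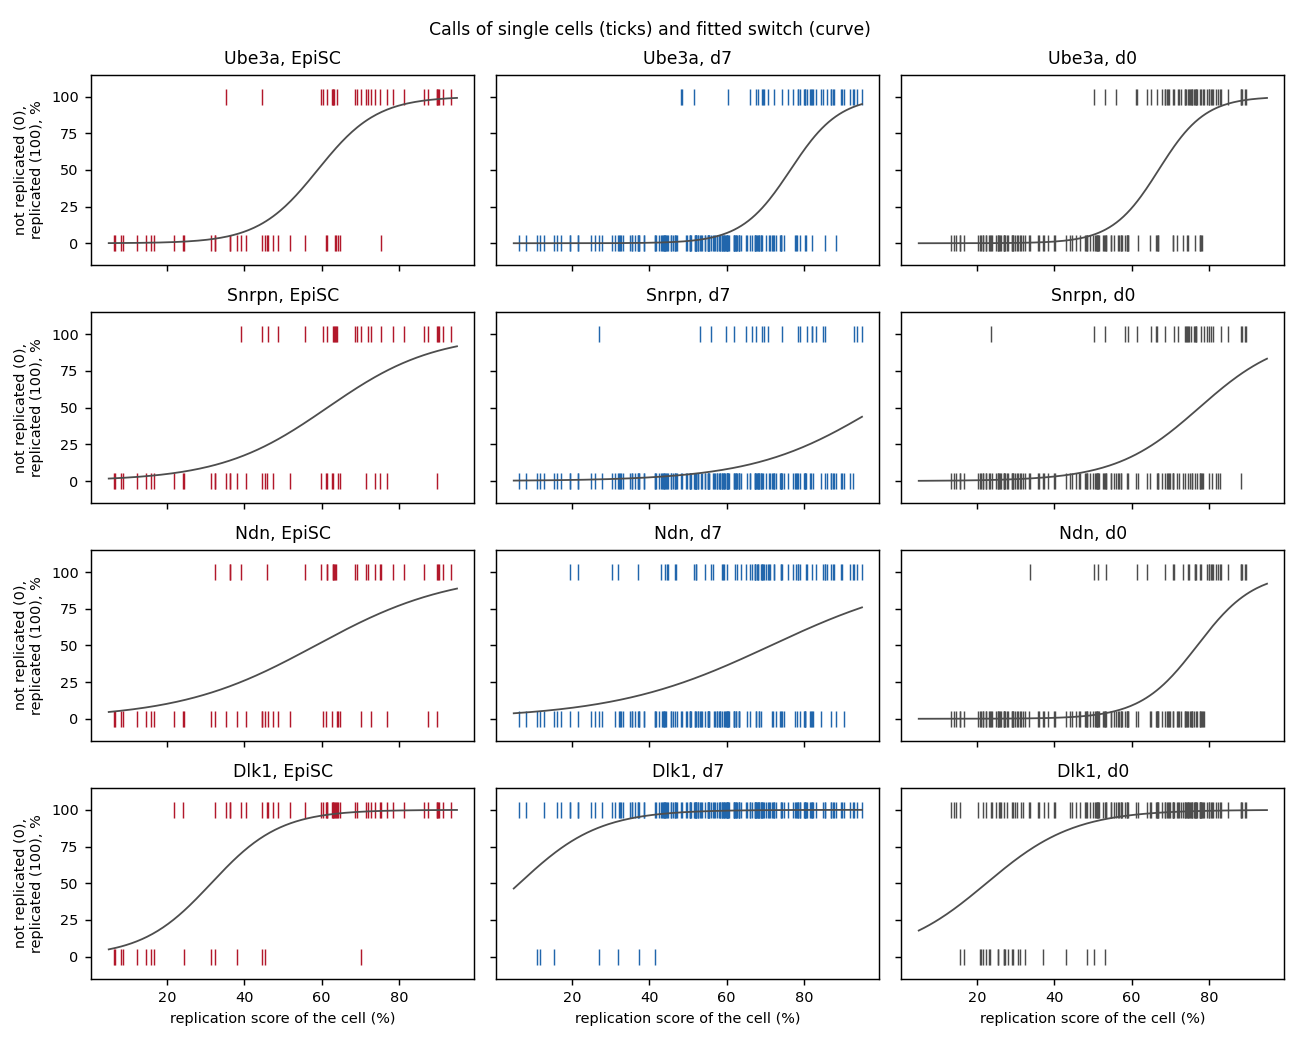
Calls of single cells for Ube3a, Snrpn, Ndn and Dlk1 in EpiSCs, at d7 and at d0, by replication score (horizontal axis, %). Ticks at the top are replicated cells, ticks at the bottom unreplicated ones, and the curve is the fitted percentage of cells replicated. For Ndn the earliest replicated and the last unreplicated cell stood at scores of 32.5% and 89.7% in EpiSCs and 19.5% and 90.3% at d7, against 33.7% and 78.6% at d0.

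Ndn had the widest switch of the 10 genes at d7 and in EpiSCs, and also in d3, d5 and d6 cells. The largest span was 69.7 points in d6 cells, where like-timed bins had a median of 10.4. It was 57.4 points in d5 cells and 49.6 in d3 cells. The course was uneven, since d4 cells had only 17.8 points and d2 cells 25.0, both narrower than Snrpn. The fits from d3 to d6 rest on 39 to 52 cells each. The span of Ndn was 38.8 points in EpiSCs and 45.0 at d7, against 16.1 at d0. Like-timed bins had medians of 13.9, 16.1 and 15.4 points, and 99.9% of them in EpiSCs, 99.6% at d7 and 58% at d0 had a span no wider than that of Ndn. At d7 the earliest cell with Ndn replicated had a score of 19.5% and the last without it 90.3%. Of the calls at d7, 33.9% were on the wrong side of the midpoint, against 16% in like-timed bins. The span was wide in both sets of d7 cells, 69.7 points in the previous-series and 33.5 in the present-series cells, with 99.6% and 98.6% of like-timed bins no wider. The midpoint was 46.5% in the previous-series and 76% in the present-series cells. Present-series cells pool 4 G1 controls, in which Ndn was replicated in 7 of 22, 1 of 28, 4 of 5 and 1 of 11 window cells. No span was fitted within a control, so spread between controls and spread between cells cannot be told apart.

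Snrpn lay above the like-timed median in all 8 groups, with a span in points of 23.8 for d0, 38.8 for d2, 40.8 for d3, 47.2 for d4, 37 for d5, 33.5 for d6, 35.2 for d7 and 30.4 for EpiSCs. Like-timed medians were 4.54 to 20.6 points. At d0 the span only equalled the 90th percentile of like-timed bins, and at d7, where the midpoint lay beyond the cells, it was below it, 35.2 points against 37. Ube3a, 640 kb away, lay above the like-timed median in EpiSCs (16.9 points against 14.6), at d3 (25.0 against 14.6) and at d5 (21.6 against 9.91). At d7 it had 13.9 points against 15.4 and at d0 13.3 against 13.9.

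Dlk1 and Meg3 each had a span of 25.0 points at d0, where 97.1% of like-timed bins were no wider. At scores of 5 to 20% Dlk1 was already replicated in 4 of 6 d0 cells, at 20 to 40% in 24 of 42, and at 40 to 55% in 23 of 27. Meg3 had the same counts. The share thus did not rise between the 2 lowest bands. Both genes were also called replicated in 4 of 72 G1 cells, and the part of such calls in the span was not tested. Peg3 was narrow at d0, 7.04 points against a like-timed median of 13.3, and wide later, with 25.0 points in EpiSCs and 29 at d7 against medians of 14.6 and 15.4. Igf2r and Kcnq1 had spans below the like-timed median at d7 (12.0 and 13.9 points against 16.1) and at d0 (8.56 and 8.15 points against 14.6).

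Spans above the like-timed median were found for 8 of 10 genes in EpiSCs, 6 at d7 and 4 at d0, where 48%, 46.6% and 47.1% of all bins had one. Spans above the 90th percentile of like-timed bins were found for 4 genes in EpiSCs, 2 at d7 and 2 at d0, where 8.93%, 8.79% and 8.74% of bins had one. Between d0 and d7 the genes above the median numbered 4 at d2, 6 at d3, 7 each at d4 and d5 and 5 at d6, where 47.5%, 47.6%, 47.2%, 47.2% and 48.2% of bins were. Those above the 90th percentile numbered 2, 2, 3, 4 and 5 on the same days, where 9.17%, 9.2%, 8.9%, 9.28% and 9.34% of bins were. Several of these genes share a stretch, so the counts are not of independent loci. With present-series cells alone 7 genes exceeded the median at d0, and with previous-series cells alone 3 did at d7.

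**Figure D5:**
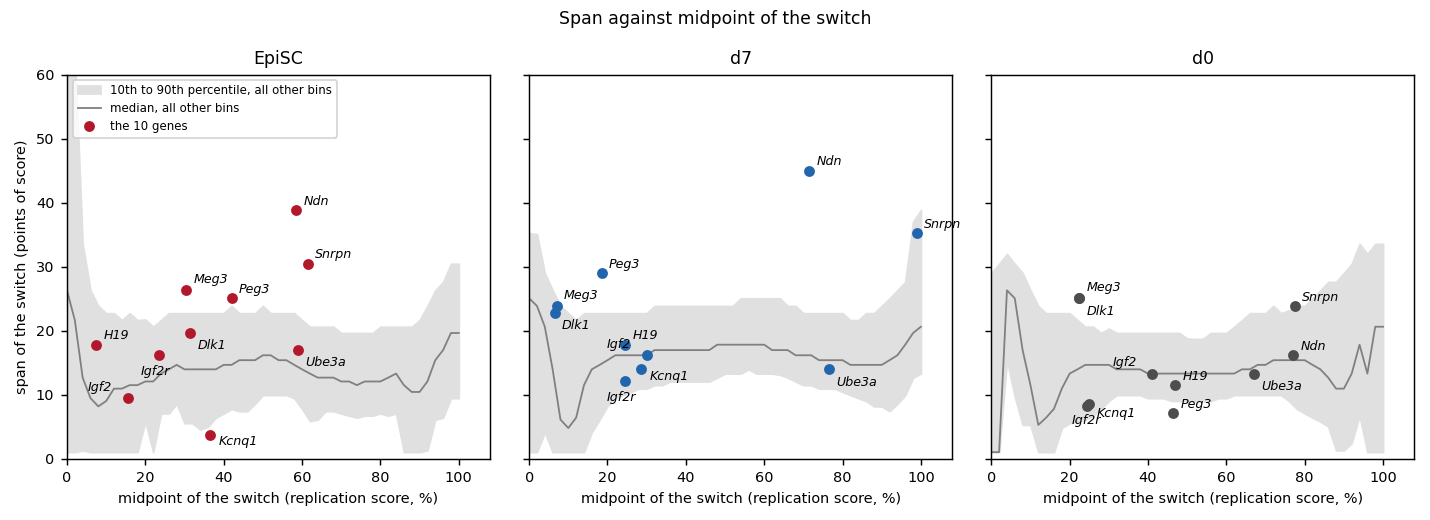
Span of the switch (vertical axis, points of score) against its midpoint (horizontal axis, replication score in %) for the 10 genes in EpiSCs, at d7 and at d0. The grey line and band are the median and the 10th to 90th percentile of bins outside the windows with a like midpoint. Ndn stands at 38.8 points in EpiSCs and 45.0 at d7, above the band, and at 16.1 points at d0, inside it.

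The order of 2 genes was read from cells in which only one of them was replicated, for 7 pairs. Ube3a was replicated alone in 9 EpiSCs and Snrpn alone in 7, in 29 and 9 d7 cells, and in 24 and 6 d0 cells. The share with Ube3a first was 76.3% [59.8 to 88.6] at d7 and 80% [61.4 to 92.3] at d0. The d7 order came from present-series cells (28 and 5), since the previous-series cells gave 1 and 4, and window cells alone gave 8 and 7.

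Snrpn and Ndn had no fixed order. Snrpn was replicated alone in 16 cells and Ndn alone in 15 at d0, in 21 and 5 at d2, in 10 and 2 at d3, in 9 and 4 at d4, in 4 and 13 at d5, in 3 and 11 at d6, in 6 and 54 at d7, and in 9 and 11 in EpiSCs. Snrpn thus came first in most such cells from d2 to d4, and Ndn in most from d5 to d7. The share with Snrpn first was 10% [3.76 to 20.5] at d7, against 51.6% [33.1 to 69.8] at d0. It was 80.8% [60.6 to 93.4] at d2. Both sets of d7 cells had the same order, with Ndn alone in 22 previous-series and 32 present-series cells and Snrpn alone in 2 and 4. Ube3a alone was found in 10 EpiSCs and Ndn alone in 10, in 13 and 41 d7 cells, and in 29 and 9 d0 cells. Of those d7 cells, the previous series gave 1 and 24 and the present series 12 and 17.

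Igf2 and Kcnq1 also exchanged places. Igf2 was replicated alone in 10 EpiSCs and Kcnq1 alone in 0, in 6 and 9 d7 cells, and in 0 and 28 d0 cells. Their midpoints were 15.5% for Igf2 and 36.5% for Kcnq1 in EpiSCs, and 41% for Igf2 and 24.5% for Kcnq1 at d0. Against Igf2r on chromosome 17, Igf2 was replicated alone in 6 EpiSCs and Igf2r alone in 2, in 4 and 12 d7 cells, and in 1 and 28 d0 cells. Both comparisons place Igf2 later than its partner in most such cells at d0 and earlier in most such EpiSCs. H19 and Igf2 had the same call in most cells, and 2.65% of d7 cells and 7.05% of d0 cells had only one of them replicated. In those few cells the order changed, with H19 alone in 5 and Igf2 alone in 0 at d7, and in 1 and 10 at d0. The share with H19 first was 100% [47.8 to 100] at d7 and 9.09% [0.230 to 41.3] at d0. Dlk1 and Meg3 differed in 5 EpiSCs, 3 d7 cells and 8 d0 cells.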

How the data were processed

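Per the labels' protocols, G1 cells and cells from parts of S phase were sorted singly, amplified and sequenced. Tools named in the submitters' processing notes are Picard, BWA 0.7.10-r789 and cutadapt, with build mm9. Per the file headers, each cell was corrected with a merged G1 control, and the deposited calls per 80 kb bin are 1 (replicated), -1 (not replicated) or 0 (no data). The deposited replication score is a fraction; a percentage computed from the calls matched it to within 5.00e-08 points. The number of called bins is used for depth, since reads were not counted. No 2 cells had equal calls in every bin.

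The members, lists and comparisons were chosen with earlier results of these data known. All members and the genes placed between 2 members are named. Groups follow the titles; 7 G1 cells whose title named another day than their other labels were left out. Bins needed calls in at least 50% of a group's cells. The gene positions were not checked against an mm9 annotation, but all 10 genes have the same order on their chromosomes in the RefSeq table (GRCm38.p6). The fit took 1% of calls as wrong, with midpoints in steps of 0.5 points and spans in steps of 5%. Cells not following the mean profile had an area under the curve below 0.8 against it. The steps were tested on simulated data: with d0 shares and d7 changes in 29702 bins, bins given a true change of 0.5, 0.4, 0.3 or 0.2 in share passed the rule of 0.3 in 50, 46, 28 and 2 of 50 cases. Spans of 40 points were recovered with a median of 38.8 at d7, with a 10th to 90th percentile of 30.4 to 52.0. In EpiSCs these percentiles were 26.3 and 60.2. Fits at d2 to d6 and midpoints near either end of S phase were not simulated. The size rule was tried on simulated data for d7 against d0 only. How it performs with the 13 window cells of d3, the 18 of d4 or the 26 of EpiSCs was not tested. Alternatives covered cells, score range, bin rule, thresholds, fit and origin. Python 3.11.15, numpy 2.4.6, pandas 2.3.3, scipy 1.17.1 and matplotlib 3.10.9 were used.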

Additional observations from a re-analysis of the deposited data

How the results depend on the processing

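The d7-against-d0 count of genes past the size rule, 0, became 1 (Ndn) with cells matched in score, with a limit of 20 points and with previous-series cells alone, 2 (Ube3a and Peg3) with present-series cells alone, and 5 with a midpoint shift of 15 points. The EpiSC-against-d0 count, 2, became 0 with the window mean or a limit of 40 points and 4 by midpoint. The EpiSC-against-d7 count, 2, became 1 (Snrpn) with the window mean, a limit of 40 points or present-series cells, and 6 by midpoint. The d4-against-d0 count, 3, became 0 with the window mean or a limit of 40 points and 1 (Peg3) with present-series cells, and the d3-against-d0 count of 4 stayed within 1.5 times under every setting run, though Snrpn was lost with the window mean, and Snrpn and Ube3a with present-series cells. Spans above the like-timed median, 4 genes at d0 and 6 at d7, numbered 7 with present-series d0 cells and 3 with previous-series d7 cells; the other settings run left the counts within 1.5 times. Over the settings run the difference at Dlk1 between d3 and d0 lay between -77.8 and -44.3 points and that at Ndn between d7 and d0 between -13.6 and 51.1 points. The cause of these shifts was not tested. No paired analysis was possible because each group is 1 sample and no test was run. The comparisons of d3 and d4 with d0, the cells without the authors' filter marks and the splits of the order and span of Ndn by series were added after seeing the data. The number of cells limits d3 to d6 most, with 13 to 21 window cells each, and 3 d0 cells that share 1 G1 control did not follow the mean profile. They are among the 9 present-series d0 window cells, so every present-series difference from d0 includes them, as does the -13.6 points at Ndn. Without such cells the present-series shares at d7 and d0 were 14.3% and 40% for Ube3a. They were 93.7% and 66.7% for Peg3, and 20.6% and 16.7% for Ndn. Origin, G1 control and day are partly confounded: previous-series cells exist only at d0 and d7.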
